A study of Mus musculus with 12 samples.

Results

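The genes described here are 41 named members of the antioxidant response: the transcription factor NRF2 (Nfe2l2) with its partners and repressors, and the enzymes that make, recycle or use glutathione and thioredoxin. They were chosen by name, as the lines that carry one of these symbols in 12 catalogues of transcript events from BV-2 cells, an established mouse microglial line. In all, 40 of the 41 were listed in at least 1 catalogue, out of 14275 genes listed. The 41st, the glutathione transferase Gsta4, was listed in none. The study held 4 groups of 3 libraries of total RNA, namely untreated control cells, cells given LPS (lipopolysaccharide, a bacterial envelope component that activates microglia), cells given NMN (nicotinamide mononucleotide, a precursor of NAD+), and cells given LPS+NMN. No dose or duration of either treatment is stated in the sources. According to the design text, the study asked how NMN rescues BV-2 cells from ferroptosis (an iron-dependent form of cell death) brought on by LPS.

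NRF2 is held in the cytoplasm and sent for degradation by KEAP1, a sensor whose cysteines react with oxidants and electrophiles. Once freed, NRF2 enters the nucleus, pairs with a small MAF protein and binds antioxidant response elements near its target genes, where BACH1 competes with it. Its targets supply glutathione, the thioredoxin and peroxiredoxin systems that reduce oxidised cysteines and peroxides, and the NADPH that both draw on. Glutathione is the cofactor that cells use to remove lipid peroxides, whose build-up drives ferroptosis.

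An event in these catalogues is a structural feature of the transcripts assembled from 1 library: a first exon, a last exon, a skipped exon, a cassette of several exons, a retained intron or an alternative exon end. These kinds were read from the event codes, since the sources name no program. Each value below is the number of distinct events of a gene in a library. It is not a level of expression, and the files hold no read counts, so the depth behind a listing is unknown. A gene or event that is not listed may still be transcribed. In RNA from bulk cultures, fewer cells of a kind and less RNA per cell cannot be told apart. The catalogues held 50784 to 55787 events and 11911 to 12246 genes, and control replicate 1 had the largest. Of 12 microglial and macrophage markers 10 were listed in all 12 libraries, among them Aif1, Csf1r, Trem2 and Tmem119, while Cx3cr1 and P2ry12 were listed in some. The labels' cell type tag reads macroglia. The astrocyte genes Aqp4 and Aldh1l1, the neuronal genes Rbfox3, Snap25 and Syt1, and the T cell genes Cd3e, Cd3g and Cd8a were listed in none, and Mbp, Slc1a2 and Tubb3 were listed in all. Whether the 3 libraries of each group were grown as separate cultures is not stated, and a p-value here reflects the spread between libraries, which may be technical.

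Event numbers of most of these genes varied by 3 or fewer between the 12 libraries. Of the 40 listed genes 39 were present in all 12 libraries, 8 had the same number in each library, and 32 varied and could be tested. The 8 with a fixed number were Gpx1 and Prdx4 with 3 events each, and Nqo1, Hmox1, Prdx3, G6pdx, Tkt and Cat with 2 each. Over the whole set a control library held 159 ± 4.58 events (mean ± SD, n = 3), an LPS library 155 ± 13.0, an NMN library 158 ± 1.53 and an LPS+NMN library 167 ± 5.51. The LPS libraries, at 156, 142 and 168, spanned the values of the other groups except the highest LPS+NMN library, at 173. Only Gsta1 passed the test in any comparison.

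**Figure D1:**
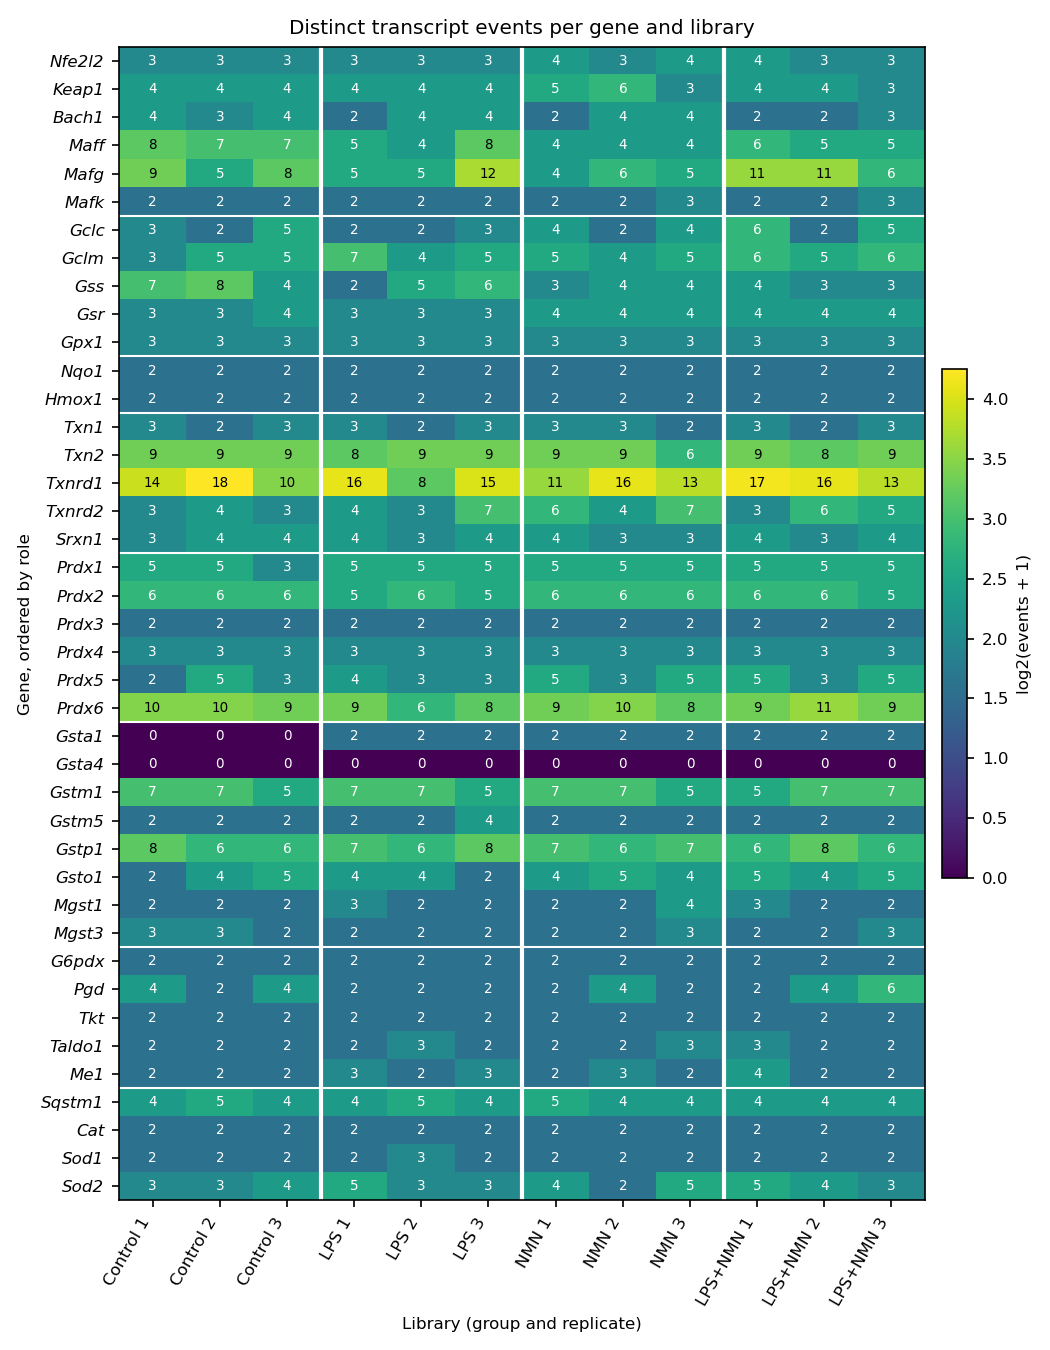
Heat map of the number of distinct transcript events of each of the 41 genes (rows, ordered by role) in each of the 12 libraries (columns), with the number printed in each cell and the colour on a log2(events + 1) scale. The Gsta1 row is at 0 in the 3 control libraries and at 2 in the other 9, Gsta4 is at 0 throughout, and Txnrd1 (both strands counted) and Mafg vary most, from 8 to 18 and from 4 to 12.

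Gsta1, an alpha-class transferase that joins glutathione to electrophiles and reduces lipid hydroperoxides, was listed in every treated library and in no control library. It had 0 events in each of the 3 control libraries and 2 in each of the 3 LPS, 3 NMN and 3 LPS+NMN libraries, so treated and control libraries did not overlap. On the scale of log2(events + 1), the difference from control was 1.58 ± 0.22 (SE) in each treated group, with limma adjusted p = 0.00618 for LPS, 0.00715 for NMN and 0.00676 for LPS+NMN. With that, 1 of the 32 members tested passed in each comparison with control, where 0.3%, 0.231% and 0.334% of the 11671 genes tested passed for LPS, NMN and LPS+NMN. Counting genes with more events alone, the shares over all genes were 0.257%, 0.223% and 0.283%. The number did not vary within any group, so its standard error was borrowed from the other genes, and Gsta1 entered the test only through its treated libraries. When each comparison was fitted on its own 6 libraries, Gsta1 no longer passed (adjusted p = 0.264, 0.310 and 0.265). Among all genes listed, 24 of 14275, or 0.168%, were present in the 9 treated libraries and absent from the controls. The 3 comparisons share their control libraries.

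The listed start of Gsta1 differed between the treated libraries. Gsta1 lies at chr9:78230656-78242684 on the plus strand of GRCm38, and its annotated coding transcript has 7 exons. Its annotated last exon, exon 7, was listed in all 9 treated libraries and no control library, the only 1 of 311 member events with that pattern, beside 0.0848% of the events of all genes. The first exon was annotated exon 1 in the 3 NMN libraries, in LPS replicate 2 and in LPS+NMN replicate 1. In the other libraries the listed transcript began inside the gene, at exon 2 in LPS replicate 1 and LPS+NMN replicate 2, at exon 5 in LPS replicate 3 and at exon 4 in LPS+NMN replicate 3. No splicing event of Gsta1 was listed in any library. Its neighbour in sequence, Gsta2, was at 0 in the control libraries, at 2 in the LPS and LPS+NMN libraries and at 2, 2 and 0 in the NMN libraries, and it did not pass (limma adjusted p = 0.167, 0.544 and 0.194 against control for LPS, NMN and LPS+NMN). The coding sequences of Gsta1 and Gsta2 are 97.6% identical, against 74.9% for Gsta1 and Gsta3 and 67.7% for Gsta1 and Gsta4. The sources do not say how reads matching both genes were assigned, so the listings of this pair are uncertain. Gsta3 was listed in all libraries, with 2, 3 and 2 events in the control libraries, 3 in each LPS and NMN library and 4, 3 and 3 in the LPS+NMN libraries.

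Among the regulators, the small MAF factor Maff had a transcript structure that separated the control from the treated libraries. MAFF lacks a transactivation domain and acts as the DNA-binding partner of NRF2 or, paired with itself, as a repressor. Maff had 8, 7 and 7 events in the control libraries, 5, 4 and 8 in the LPS libraries, 4, 4 and 4 in the NMN libraries and 6, 5 and 5 in the LPS+NMN libraries. The NMN and LPS+NMN values all lay below the control values, and those of LPS overlapped them. How many of all genes separate in this way was not counted. In the test the NMN libraries differed from control by -0.73 ± 0.20 (SE) on the log2 scale (unadjusted p = 0.00344, limma adjusted p = 0.336), which did not pass. In this comparison 7% of all genes tested had a limma unadjusted p under 0.05.

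The last intron of Maff was listed as retained in the control libraries alone. Maff lies at chr15:79346621-79359076 on the plus strand of GRCm38, and the intron, 387 nt long, separates a 67-nt exon 2, of which 36 nt are coding, from the last of 3 exons. Its retention was in the approximate form of the event, read from its code as one whose exon edges may differ between the compared transcripts. This retention was listed in 3 of 3 control libraries and 0 of 9 treated libraries. The same held for an alternative-end event of exon 2 in its annotated 67-nt form. Each control library listed that form beside a longer one, given below, so its absence elsewhere does not show that treated libraries lack exon 2. The retained intron and this form of exon 2 share the edge between them and are not independent. These 2 were the member events listed in all controls and no treated library, out of 311 member events. Over all genes 0.0735% of 141591 events had that pattern. Conversely, the last exon beginning at its annotated start was listed in 0 of 3 control, 3 of 3 LPS, 2 of 3 NMN and 2 of 3 LPS+NMN libraries. In each control library exon 2 was also listed with a far end 972, 983 or 1062 nt from its start, past the start of the annotated last exon, with a different end in each library. Maff's 3 main annotated first exons were listed in 12, 12 and 11 libraries. The sequence across the junction that the retained intron interrupts is shown to place the event in the reading frame, with the start codon at its first base, the coding bases of exon 2 in lower case and the first 36 bases of exon 3 in capitals (GENCODE transcript sequence, chr15:79356998-79357456, plus strand of GRCm38, intron removed).
Maff exon 2 and exon 3: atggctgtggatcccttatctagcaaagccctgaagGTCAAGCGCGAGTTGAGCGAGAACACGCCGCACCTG

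Nfe2l2, the gene of NRF2 itself, listed either its last coding exon or a first exon inside the gene, and each was listed in libraries of at least 3 groups. It had 3 events in every control and LPS library, 4, 3 and 4 in the NMN libraries and 4, 3 and 3 in the LPS+NMN libraries. The annotated last coding exon, exon 5 of 5 with 1221 of its 1672 nt coding, was listed in 2 control libraries, 1 LPS library, 1 NMN library and 0 LPS+NMN libraries. A first exon inside the gene, 315 nt long and absent from the annotation, was listed in the other 8 libraries, namely 1 control, 2 LPS, 2 NMN and 3 LPS+NMN. No library held both and none held neither. The annotated exon 1 and the last exon of a short noncoding transcript of 2 exons were listed in all 12.

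**Figure D2:**
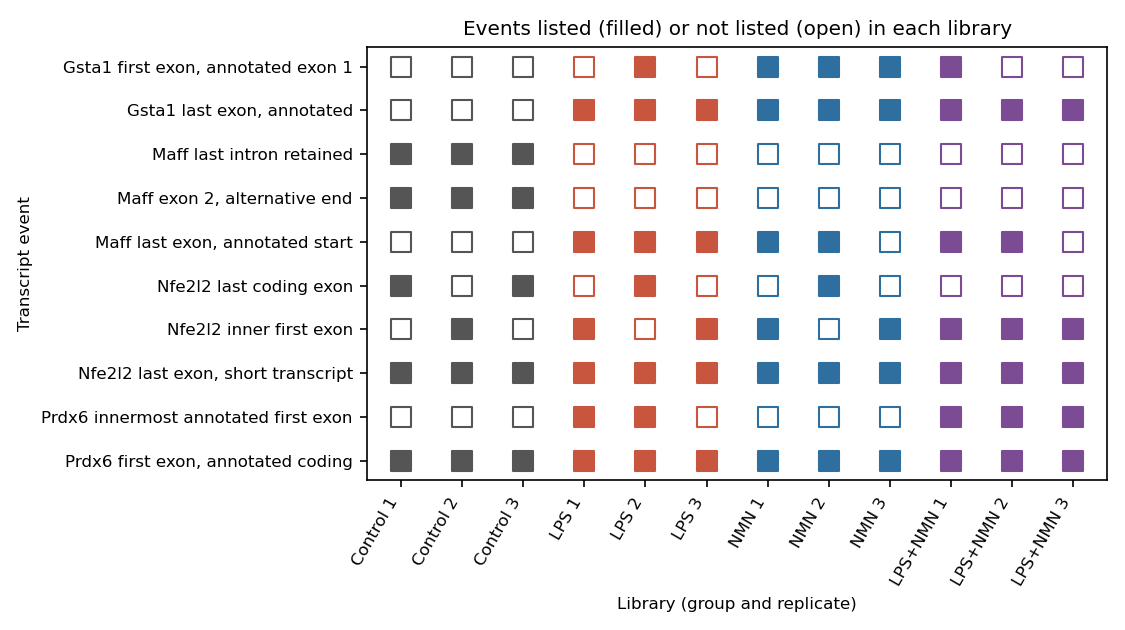
Presence of 10 transcript events of Gsta1, Maff, Nfe2l2 and Prdx6 (vertical axis) in each of the 12 libraries (horizontal axis), with a filled square where the event was listed and an open square where it was not. The Gsta1 last exon is filled in the 9 treated libraries alone, the Maff retained intron in the 3 control libraries alone, and the Nfe2l2 last coding exon and inner first exon are never filled together.

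The numbers of the other regulators overlapped between groups. KEAP1, the NRF2 inhibitor, had 4 events in every control and LPS library, 5, 6 and 3 in the NMN libraries and 4, 4 and 3 in the LPS+NMN libraries. NMN replicate 2 alone listed a 674-nt and a 686-nt form of the third Keap1 exon, both fully coding. BACH1, the haem-sensitive repressor of NRF2 targets, had 4, 3 and 4 events in the control libraries, 2, 4 and 4 in the LPS and in the NMN libraries, and 2, 2 and 3 in the LPS+NMN libraries. Mafg, another small MAF gene, ranged from 4 to 12 events, with 9, 5 and 8 in the control, 5, 5 and 12 in the LPS, 4, 6 and 5 in the NMN and 11, 11 and 6 in the LPS+NMN libraries, so every group overlapped another. LPS replicate 3 was the library with the most Mafg events and the one in which a 349-nt Mafg intron was listed as retained. Skipping of a 31-nt noncoding exon of Mafg was listed in 8 libraries. Mafk had 2 events in 10 libraries and 3 in NMN replicate 3 and LPS+NMN replicate 3. None of the 6 regulators passed the test in any comparison.

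The enzymes of glutathione synthesis and recycling did not pass the test in any comparison either. The last step of synthesis is carried out by Gss, glutathione synthetase, which had 7, 8 and 4 events in the control libraries, 2, 5 and 6 in the LPS libraries, 3, 4 and 4 in the NMN libraries and 4, 3 and 3 in the LPS+NMN libraries. Control replicate 3 met the highest NMN and LPS+NMN values. The difference between LPS+NMN and control was -0.72 ± 0.31 (SE) on the log2 scale (unadjusted p = 0.0371, limma adjusted p = 0.615). Skipping of Gss exon 2, 135 nt with 129 coding, was listed in 3 control, 2 LPS, 1 NMN and 1 LPS+NMN libraries. Gsr, glutathione reductase, had 3, 3 and 4 events in the control libraries, 3 in each LPS library and 4 in each NMN and LPS+NMN library. LPS and LPS+NMN libraries did not overlap, yet the difference of 0.32 ± 0.14 (SE) did not pass (unadjusted p = 0.037, limma adjusted p = 0.93). Of all genes tested 4.46% had a limma unadjusted p under 0.05 here, and how many separate in this way was not counted. The fourth Gsr event was not 1 feature: it was 1 of 3 different extra first exons, listed in 2, 3 and 2 libraries.

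Gclc and Gclm, the catalytic and modifier subunits of the rate-limiting glutamate-cysteine ligase, overlapped between all groups. Gclc had 3, 2 and 5 events in the control, 2, 2 and 3 in the LPS, 4, 2 and 4 in the NMN and 6, 2 and 5 in the LPS+NMN libraries. Gclm had 3, 5 and 5 events in the control, 7, 4 and 5 in the LPS, 5, 4 and 5 in the NMN and 6, 5 and 6 in the LPS+NMN libraries. Skipping of Gclm exon 6, a coding exon of 115 nt, whose length is not a multiple of 3, was listed in 1 control, 2 LPS, 2 NMN and 3 LPS+NMN libraries. Gpx1, the cytosolic glutathione peroxidase, kept the same 3 events in all 12.

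Nqo1 and Hmox1, the quinone reductase and the haem oxygenase often used as markers of NRF2 activity, each held 1 first exon and 1 last exon in every library. Their counts could not be tested, but the listed first exon of Nqo1 differed between libraries. Annotated exon 1 of Nqo1 was listed in 1 of 3 control libraries, all 3 LPS, all 3 NMN and 2 of 3 LPS+NMN libraries. Control replicates 2 and 3 and LPS+NMN replicate 1 listed a start inside the gene in its place. For Hmox1 the annotated first exon was listed in 11 libraries, and control replicate 1 listed another.

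Txnrd1, the cytosolic thioredoxin reductase, had the most events of any member and the widest range when both strands were counted. It had 14, 18 and 10 events in the control libraries, 16, 8 and 15 in the LPS libraries, 11, 16 and 13 in the NMN libraries and 17, 16 and 13 in the LPS+NMN libraries, and the ranges of all groups overlapped. Part of these events lay on the strand opposite to the gene: 6, 7 and 4 in the control, 6, 2 and 5 in the LPS, 5, 6 and 6 in the NMN and 7, 6 and 7 in the LPS+NMN libraries. On its own strand Txnrd1 had 6 to 11 events, close to Prdx6 (6 to 11) and Txn2 (6 to 9) and with a narrower range than Mafg (4 to 12). In all, 8 distinct Txnrd1 events were on the opposite strand. Of their 9 exon edges 6 coincided, after the shift found for Txnrd1, with exon edges of Gm38560, a noncoding RNA transcribed away from the same promoter region (GRCm38 chr10:82845733-82859008, minus strand). Opposite-strand events made up 16 of 311 member events (5.14%), in Txnrd1, Gss, Prdx5, Taldo1 and Me1, beside 6.88% of the events of all genes with an annotated strand. The region upstream of the start near which the minus-strand Gm38560 also begins is shown as RefSeq gives it, with the 1 match to the core of the antioxidant response element in capitals (chr10:82858956-82859205, plus strand of GRCm38.p6). RefSeq gives 3 Txnrd1 starts, and the windows of the other 2 held no match.
Txnrd1 upstream: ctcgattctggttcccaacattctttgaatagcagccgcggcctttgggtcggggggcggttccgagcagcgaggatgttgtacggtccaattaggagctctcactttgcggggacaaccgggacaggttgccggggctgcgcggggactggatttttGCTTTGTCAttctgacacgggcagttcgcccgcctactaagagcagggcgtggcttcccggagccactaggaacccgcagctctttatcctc

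On its own strand, skipping of a 107-nt noncoding exon of Txnrd1 was listed in all 12 libraries, and its other splicing events were listed in some. Skipping of a 75-nt exon was listed in all libraries of the control, LPS and LPS+NMN groups and in 1 of 3 NMN libraries. NMN replicates 1 and 3 instead listed skipping of a longer form with the same start, which some libraries of the other groups listed too. An exon with this start was thus listed as skipped in all 12 libraries. For Txnrd2, the mitochondrial reductase, the events numbered 3, 4 and 3 in the control, 4, 3 and 7 in the LPS, 6, 4 and 7 in the NMN and 3, 6 and 5 in the LPS+NMN libraries. NMN differed from control by 0.60 ± 0.29 (SE) on the log2 scale (limma adjusted p = 0.725). Skipping of Txnrd2 exon 14 of 18 was listed in all 12 libraries, and its 93 nt are all coding. Among the thioredoxins themselves, Txn1 (cytosolic) had 2 or 3 events in every library, and Txn2 (mitochondrial) had 8 or 9 in all but NMN replicate 3, which had 6. Srxn1, the sulfiredoxin that repairs overoxidised peroxiredoxins, had 3 or 4.

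The peroxiredoxins, which reduce hydrogen peroxide and organic peroxides with a reactive cysteine, included a gene with 2 exons listed as skipped in every library. Prdx6, the member that uses glutathione and also acts on phospholipid hydroperoxides, had 10, 10 and 9 events in the control libraries, 9, 6 and 8 in the LPS libraries, 9, 10 and 8 in the NMN libraries and 9, 11 and 9 in the LPS+NMN libraries. Skipping of its coding exon 2 (157 nt) and of a 111-nt exon before it was listed in all 12 libraries. Its annotated coding first exon was also listed in all 12. The innermost of its annotated first exons, a noncoding one, was listed in 0 control, 2 LPS, 0 NMN and 3 LPS+NMN libraries. Prdx5, found in mitochondria, peroxisomes and cytosol, had 2, 5 and 3 events in the control, 4, 3 and 3 in the LPS, 5, 3 and 5 in the NMN and 5, 3 and 5 in the LPS+NMN libraries. Skipping of its exon 3, 132 coding nt, was listed in 2 control, 2 LPS, 3 NMN and 3 LPS+NMN libraries. Prdx1 had 5 events in 11 libraries and 3 in control replicate 3, Prdx2 had 5 or 6, and Prdx3 and Prdx4 did not vary. None of the 4 peroxiredoxins tested passed in any comparison.

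The 4 annotated, fully coding exons whose skipping was listed in at least 10 libraries are shown because they are the stretch that the skipped forms lack (GENCODE sequence on GRCm38, written 5′ to 3′ along the transcript). They are Prdx6 exon 2 (chr1:161247257-161247413, minus strand), Prdx5 exon 3 (chr19:6907542-6907673, minus strand), Txnrd2 exon 14 (chr16:18472794-18472886, plus strand) and Sod2 exon 3 (chr17:13010520-13010636, plus strand).
Prdx6 exon 2: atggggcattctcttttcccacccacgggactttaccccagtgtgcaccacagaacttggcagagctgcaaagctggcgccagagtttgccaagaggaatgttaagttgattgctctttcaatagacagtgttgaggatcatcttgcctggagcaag
Prdx5 exon 3: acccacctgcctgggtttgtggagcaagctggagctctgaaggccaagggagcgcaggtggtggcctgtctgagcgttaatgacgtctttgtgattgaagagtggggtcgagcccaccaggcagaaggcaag
Txnrd2 exon 14: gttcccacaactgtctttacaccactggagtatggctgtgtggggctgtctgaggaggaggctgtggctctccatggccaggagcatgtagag
Sod2 exon 3: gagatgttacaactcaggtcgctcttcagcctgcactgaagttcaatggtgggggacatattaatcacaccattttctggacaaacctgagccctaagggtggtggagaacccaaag
The lengths of Prdx5 exon 3, Txnrd2 exon 14 and Sod2 exon 3 are multiples of 3, and that of Prdx6 exon 2 is not. Over the whole set 34 exons of 17 genes were listed as skipped, with a median length of 124.5 nt, and 16 of them (47.1%) had a length that is a multiple of 3. Of the 17761 skipped exons of all genes 41.5% did, with a median of 115 nt.

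Of the 7 glutathione transferases tested only Gsta1 passed. Gstm1, the main mu-class enzyme, had 5 or 7 events in every library, with each group holding both values. The library with 5 was replicate 3 in the control, LPS and NMN groups and replicate 1 in the LPS+NMN group, and each time the 2 missing events were first exons. Gstp1, the pi-class enzyme, had 6 to 8 events and Gsto1, the omega-class enzyme, 2 to 5. Gstm5 had 2 events in 11 libraries and 4 in LPS replicate 3. The membrane-bound Mgst1 had 2 events in 9 libraries and Mgst3 had 2 in 8, and their highest values were 4 and 3.

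The enzymes that supply NADPH had few events. G6pdx, which opens the pentose phosphate pathway, and Tkt, its transketolase, had 2 events in every library. Tkt alternated between a noncoding first exon, in 8 libraries, and the first exon of its coding transcript, in 1 control, 2 LPS, 0 NMN and 1 LPS+NMN libraries. Pgd, which makes the second NADPH of the pathway, had 4, 2 and 4 events in the control libraries, 2 in each LPS library, 2, 4 and 2 in the NMN libraries and 2, 4 and 6 in the LPS+NMN libraries. The extra events were 2 or more ends of exon 6. Me1, malic enzyme, and Taldo1, transaldolase, had 2 events in 8 and 9 libraries. Both Taldo1 events of LPS+NMN replicate 3 and 2 of the 3 Me1 events of LPS replicate 1 lay on the opposite strand, and the genes' own first and last exons were not listed there.

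Sqstm1, the autophagy receptor p62 that also binds KEAP1, had 4 or 5 events and a pair of exon 7 forms, of 196 and 82 nt, in all 12 libraries. Cat, catalase, did not vary, and Sod1, the cytosolic superoxide dismutase, had 2 events in all libraries but LPS replicate 2, which had 3. Sod2, the mitochondrial superoxide dismutase that inflammatory signals are known to induce, had 3, 3 and 4 events in the control libraries, 5, 3 and 3 in the LPS libraries, 4, 2 and 5 in the NMN libraries and 5, 4 and 3 in the LPS+NMN libraries. Skipping of its coding exon 3 was listed in 3 control, 2 LPS, 2 NMN and 3 LPS+NMN libraries.

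By kind of event, first exons made up a larger mean share of member events than of the events of all genes. For last exons the group means were 29.0% to 31.7%, beside 28.2% to 28.6% over all genes. First exons made up 43.2% ± 0.492 (SD, n = 3) of member events in the control, 41.6% ± 2.57 in the LPS, 42.7% ± 2.01 in the NMN and 42.2% ± 1.60 in the LPS+NMN libraries, beside 37.7% to 38.5% over all genes. Skipped exons numbered 15, 19 and 12 in the control libraries, 16, 10 and 17 in the LPS libraries, 15, 15 and 19 in the NMN libraries and 22, 19 and 19 in the LPS+NMN libraries. LPS+NMN and control met at 19, while every LPS library lay below every LPS+NMN library. Over all genes these 2 groups overlapped, with 7310, 7090 and 7330 skipped exons in the LPS and 7236, 7103 and 7537 in the LPS+NMN libraries. Exact and approximate forms of a skip were counted apart, so the 41 distinct member events of this kind cover 34 exons. The difference in the member sum was not tested, since the members share libraries and were chosen by name. Retained introns were 1 in each control library, all in Maff. They were 1, 0 and 3 in the LPS libraries (Sod2 in replicate 1, Mafg in both forms of the event and Txnrd1 in replicate 3), 0, 1 and 0 in the NMN libraries (Txnrd1) and 0 in all LPS+NMN libraries. Over all genes the order was the reverse, with 1198, 1132 and 1082 retained introns in the control and 1214, 1245 and 1257 in the LPS+NMN libraries. Of the 311 member events 94 (30.2%) were listed in all 12 libraries and 99 (31.8%) in only 1, beside 16.2% and 44.0% of the events of all genes. These sets are unlike, since every listed member but Gsta1 was present in all 12 libraries. All genes included ones listed in fewer than 3, whose events could not recur in 12. The share among genes present in all 12 libraries was not computed. A first exon shared by all 12 libraries was listed for 31 members and a shared last exon for 31, and 13 had no splicing event in any library.

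**Figure D3:**
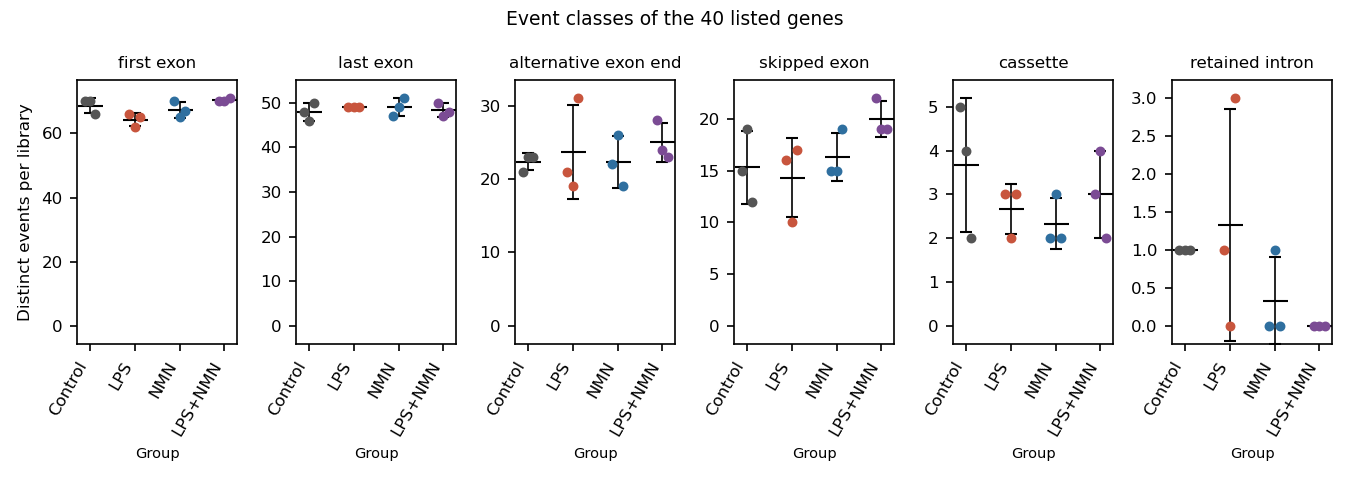
Distinct events per library (vertical axes) of the 40 listed genes, summed by kind of event in 6 panels, for the 4 groups (horizontal axes); points are libraries, horizontal lines group means and bars SD, n = 3. Skipped exons number 19 to 22 in the LPS+NMN libraries and 10 to 17 in the LPS libraries, while over all genes (not drawn) these groups overlap. The retained introns are at 1 in each control library, the same Maff event, and at 0 in each LPS+NMN library. Over all genes (not drawn) every control library held fewer retained introns than every LPS+NMN library.

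Set side by side, the comparisons with control held few member events listed in all libraries of 1 group and none of the other. With LPS, the Gsta1 last exon and the Maff last exon were listed in all 3 LPS and no control library, which is 2 of 251 member events, beside 0.597% over all genes. The Maff retained intron and annotated exon 2 end, which share an edge and are not independent, were listed in all 3 control and no LPS library. That was again 2 of 251, beside 0.613%. With NMN, 2 of 250 member events were listed in all treated and no control library, Gsta1 exon 1 and its last exon, beside 0.545%. The same Maff pair was again on the control side, beside 0.473%. With LPS+NMN, 2 of 258 were on the treated side, the Gsta1 last exon and the innermost Prdx6 first exon, beside 0.632%. The Maff pair was on the control side, beside 0.585%. These counts lie near the shares over all genes.

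Between LPS+NMN and LPS, the comparison the design text names, no member passed the test. None of the 32 passed (1 at an unadjusted p under 0.05, which was Gsr), where 0% of the 11671 genes tested passed and 4.46% had an unadjusted p under 0.05. No member event of 261 was listed in all libraries of 1 group and none of the other in either direction, beside 0.408% and 0.362% over all genes. By direction 15 members had more events with LPS+NMN, 9 had fewer and 8 had the same number, with a median difference of 0 for the members and for all genes tested. The largest differences were those of Pgd, at 0.65 ± 0.31 (SE) on the log2 scale, and Gclc, at 0.60 ± 0.34, with limma adjusted p = 0.93 for both.

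In the term for the interaction of LPS and NMN, which asks whether LPS+NMN departs from the sum of the single treatments, no member passed, where 0.0428% of all genes did. At an unadjusted p under 0.05 were 2 members, Gsta1 and Maff, beside 5.75% of all genes. For Gsta1 the term was -1.58 ± 0.31 (SE), limma adjusted p = 0.119. The count was 0 in control and 2 in each treated group, so the term has the sign and size of a single difference from control. Without trend and robust moderation of the variances Gsta1 passed, with adjusted p = 0.000171. For Maff the term was 0.70 ± 0.28 (adjusted p = 0.769).

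**Figure D4:**
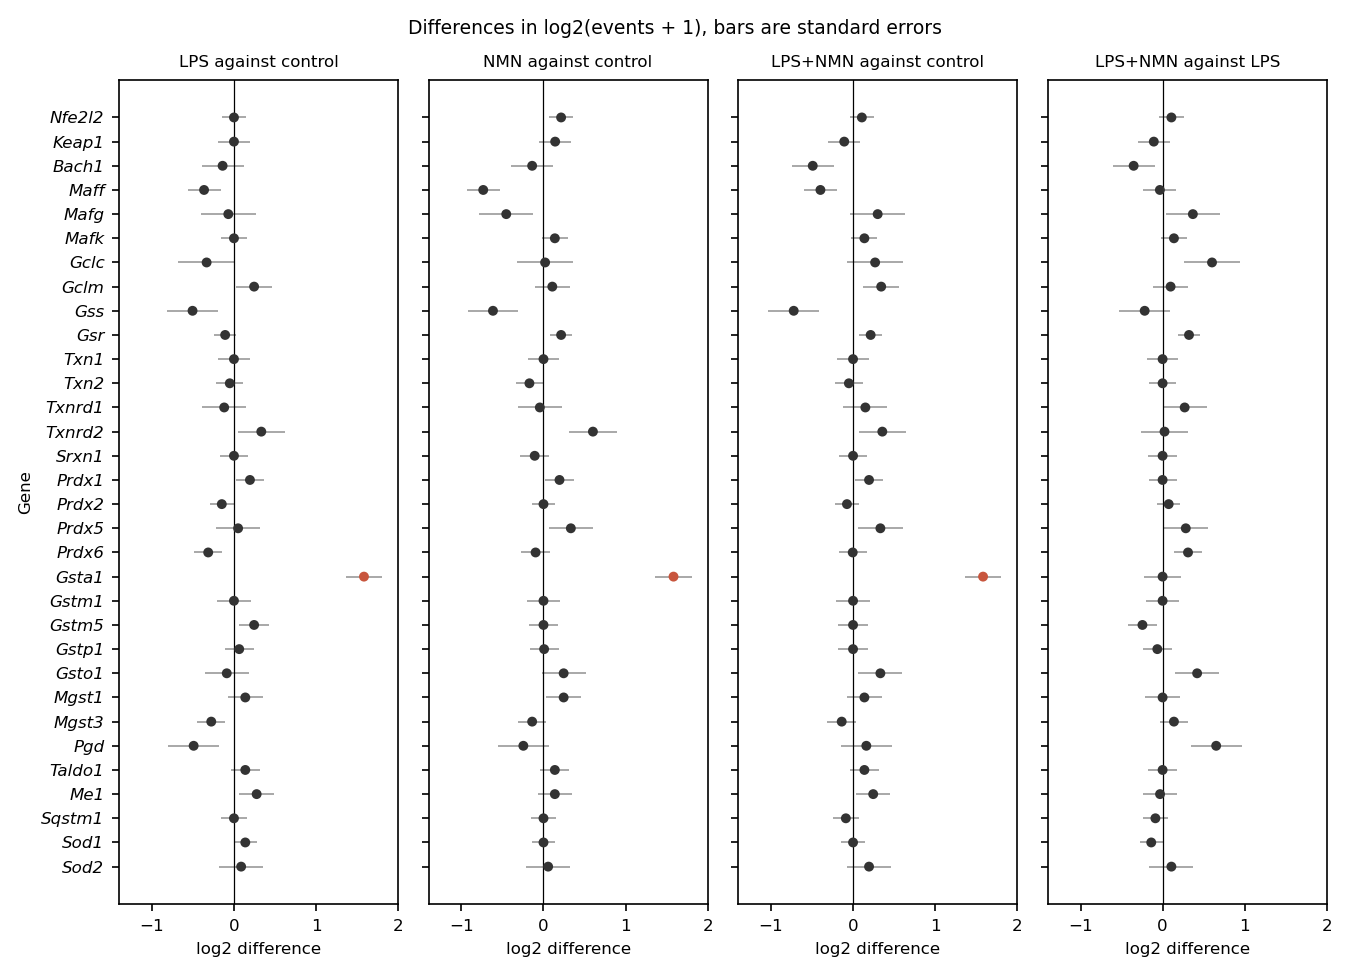
Difference in log2(events + 1) (horizontal axes) for the 32 members tested (vertical axis) in 4 comparisons, with SE bars from the limma fit and red points where the adjusted p passed. Gsta1 stands at 1.58 in the 3 comparisons with control and at 0 between LPS+NMN and LPS, and no other member passed.

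The promoters of these genes were searched for the core of the antioxidant response element, TGACNNNGC, on both strands, in the 300 bases that RefSeq gives around each start. Of 44 promoters of 36 members 14 (31.8%) held a match, beside 12.4% of all 32851 promoters and 14.1% of the promoters of genes in the catalogues. The members were named as genes of the NRF2 response, so a higher share is partly built into the list. No promoter was at hand for Gclc, Gsr, Hmox1, Prdx6 and Gsta4. The matches of Prdx1 and Me1 overlap the related AP-1 motif (TGACTCA or TGAGTCA). The upstream regions of Gsta1, the gene that passed the test, and Maff, whose listed structure separated control from treated libraries, are shown with matches in capitals: 1 of the 3 Maff starts, the one shown, held a match, 112 bases before it, the other 2 held none, and Gsta1 held none in this window (GRCm38.p6, plus strand, chr9:78230419-78230668 and chr15:79346371-79346620).
Gsta1 upstream: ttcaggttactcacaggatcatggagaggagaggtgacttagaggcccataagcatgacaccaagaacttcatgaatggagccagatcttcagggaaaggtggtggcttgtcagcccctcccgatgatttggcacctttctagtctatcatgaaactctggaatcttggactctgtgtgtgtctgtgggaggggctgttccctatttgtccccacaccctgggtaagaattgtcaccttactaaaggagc
Maff upstream: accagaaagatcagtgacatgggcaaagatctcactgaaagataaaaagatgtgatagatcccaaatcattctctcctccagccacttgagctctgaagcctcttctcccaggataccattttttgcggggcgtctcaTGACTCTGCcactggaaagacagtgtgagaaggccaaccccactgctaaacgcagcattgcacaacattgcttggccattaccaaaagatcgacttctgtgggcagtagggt
A match is a description of the sequence and was not tied to any value here.

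Beyond the named members, 83 other genes of glutathione, thioredoxin, NADPH and NRF2 biology were looked up, of which 76 were listed, 61 in all 12 libraries, and 64 could be tested. None passed for LPS or NMN against control, for LPS+NMN against LPS or for the interaction. For LPS+NMN against control 1 passed, where 0.334% of all genes tested did. Those with an unadjusted p under 0.05 numbered 6, 8 and 10 in the comparisons of LPS, NMN and LPS+NMN with control, where 7.47%, 7% and 7.45% of all genes had one, and 2 and 5 in the other comparisons. The gene that passed was Hpgds, the sigma-class transferase that makes prostaglandin D in haematopoietic cells. Hpgds had 4, 5 and 3 events in the control libraries, 14, 12 and 8 in the LPS libraries, 10, 10 and 11 in the NMN libraries and 10, 15 and 17 in the LPS+NMN libraries, so all 9 treated libraries lay above the controls. How many of all genes separate in this way was not counted. Cul3, of the same list and picked after its values were seen, separated the other way without passing. It had 14, 10 and 9 events in the control libraries and 6 or 7 in every treated library. The difference of Hpgds from control was 1.57 ± 0.24 (SE) on the log2 scale with LPS+NMN (limma adjusted p = 0.012), 1.29 ± 0.24 with LPS (adjusted p = 0.0556) and 1.20 ± 0.24 with NMN (adjusted p = 0.117). The transferase Gstt1, picked after its values were seen, was at 0 in each control, LPS and NMN library and at 2 in each LPS+NMN library. It had the same 0 against 2 as Gsta1, yet it did not pass in any comparison.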

How the data were processed

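The submitters deposited 1 catalogue of transcript events per library, for total RNA of 12 BV-2 libraries extracted with Trizol, per the labels. Each deposited line names an event by kind, gene, start, end and strand, with no counts. The sources name no program for the catalogues, so the kinds of event and their approximate forms were inferred from their codes. Per the submitters' processing notes, the build was GRCm38 and the tools included BWA 0.7.12, MACS2 2.1.0 and HOMER. Of the 40 listed members only Txn1 had event positions that matched GRCm38 without a shift, and no source names another assembly. Events were therefore matched to GENCODE M21 exons on GRCm38 by their spacing, after 1 shift per gene, and printed coordinates are those of GRCm38.

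Partner lines for the form without the event, and duplicates, were dropped. Distinct events were counted per gene and library, first and last exons by their inner edge. The log2(events + 1) values of genes listed in at least 3 libraries and varying between them (11671 of 14275, the others being 1500 below the filter and 1104 without variation) were fitted in 1 limma model (3.58.1, R 4.3.3) of 4 group means with trend and robust moderation and 8 residual degrees of freedom. Benjamini-Hochberg adjusted p under 0.05 counted as passing. The script was tested on simulated data. Depth is unknown, so no interval on a listing can be given. Alternatives included another pseudocount (0.5), no filter, a replicate block, single event kinds and leaving out each library. The members and the gene lists were chosen with earlier results of these data known. Every member was named. Values in each library were given for members with an unadjusted p under 0.05 or a span of 4 or more events, and single events where listed in all libraries of 1 group and none of another, or where a skipped exon recurred in at least 10 libraries. Other single events, and the values in each library of Nfe2l2, Keap1, Bach1, Prdx5, Sod2 and other members outside these limits, were picked after they were seen.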

Additional observations from a re-analysis of the deposited data

How the results depend on the processing

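The Gsta1 difference from control passed in 14 of 15 settings in each comparison, ranging up to 2.32 on the log2 scale (limma adjusted p from 6.59e-06 to 0.310 over the 3 comparisons, and from 0.000171 to 0.515 for its interaction). Gsta1 was at 0 in every control library and at 2 in every treated library, so leaving out a library left its counts unchanged. Its passes in these settings therefore add little to the main fit. No direction reversed for the members tested in these settings, Gsta1, Maff, Gss and Gsr. These members were taken for a limma unadjusted p under 0.05 in the main fit and refitted on largely the same libraries. Stable directions were therefore likely beforehand and add little. With the fit limited to the groups compared, 0 members passed against control in all 3 comparisons, and 1, 1 and 3 genes passed for LPS, NMN and LPS+NMN. With splicing events alone, where Gsta1 has no value, 0 members passed, with 3, 2 and 8 genes against control, 1 for LPS+NMN against LPS and 0 for the interaction. Without trend and robust moderation 1 member (Gsta1) and 39 genes passed for the interaction and 6 genes for LPS+NMN against LPS. For the latter 3 genes passed with a pseudocount of 0.5 and 1 with events on the annotated strand alone (added after seeing the data). Leaving out 1 library at a time gave 32 to 55 genes for LPS, 34 to 44 for NMN and 32 to 55 for LPS+NMN against control, with 1 member each time. It gave 0 to 11 genes for LPS+NMN against LPS and 4 to 6 for the interaction, with 0 members. The count was 55 for LPS without control replicate 1, 44, 44 and 43 for NMN without control replicates 1, 2 and 3, and 11 for LPS+NMN against LPS without LPS replicate 1, and the cause was not tested.

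Deviations of same-numbered libraries correlated at -0.0271 to 0.022 over 18 pairs, and those of differently numbered libraries at -0.0154 to 0.024 over 36. Event numbers thus gave no sign of pairing by replicate number, though such values cannot show that libraries were not paired. With the replicate number as a block 1 member passed in each comparison with control and 0 in the others, and 33, 26, 32, 0 and 4 genes passed for LPS, NMN and LPS+NMN against control, LPS+NMN against LPS and the interaction. The absence of read counts limits what an unlisted event can show.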
